A study of Mus musculus with 267 samples.

Results

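In C57 macrophages, 3543 regions of 77955 lost H3K27ac and stayed low after interleukin-4 (IL-4). H3K27ac is acetylation of lysine on histone H3, a mark of active enhancers and promoters. The regions were selected on measured values. Each had a basal mean of at least 16 normalized tags (tags scaled to 10000000 per library), and its basal mean plus 1 was at least 2.5 times its mean plus 1 at both 6 h and 24 h. They are called lowered regions here. A basal mean of at least 16 was reached by 41790 regions in all, so 38247 other active regions served for comparison. A rise by the same fold at both times was found in 2054 raised regions. Each region is 1000 bp wide and centred on a site of open chromatin, as found by ATAC-seq, which maps DNA that a transposase can reach.

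Chromatin immunoprecipitation with sequencing was performed on bone marrow-derived macrophages (BMDMs), grown from mouse bone marrow for 7 days with macrophage colony-stimulating factor. C57BL/6J (C57) cells were untreated (basal) or given 20 ng/mL IL-4 for 1, 6 or 24 h. H3K27ac was measured in 2 libraries at each time, and RNA polymerase II (Pol II) in 4 basal libraries, 1 at 1 h, 2 at 6 h and 3 at 24 h. Cells of SPRET/EiJ (SPRET), NOD/ShiLtJ (NOD), BALB/cJ (BALB) and PWK/PhJ (PWK) mice, and cells carrying floxed Egr2 alleles (Egr2flfl) or those alleles with LyzM-Cre (LyzMCreEgr2flfl), were untreated or given IL-4 for 24 h. LyzM-Cre acts in myeloid cells, so the deletion is not limited to macrophages, and the controls Egr2flfl carry the floxed alleles too.

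IL-4 signals through the transcription factor STAT6 and turns macrophages towards an alternative, tissue-repair programme, while many genes of the inflammatory programme are turned down. Macrophage enhancers are opened by lineage-determining factors such as PU.1 and C/EBP, and their acetylation and their Pol II rise and fall with signals. EGR2 is a zinc-finger factor induced by IL-4 that acts at later times.

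Genomic sequence is shown for 6 lowered regions, the 200 bp around each centre from the RefSeq assembly of mm10. Pilrb1, Cx3cr1 and Itga6 lead by the tested fall of Pol II, Sh3pxd2a and Lyl1 by the fall of H3K27ac across 4 other strains, and Unc93b1 had the highest basal H3K27ac. Capitals mark motif matches on either strand. The core GGAAGT of ETS factors, the family of PU.1, stood in 5 of the 6 sequences, where ACTTCC is the same motif on the other strand. This core was added to the search after sequences were seen, and it stood in 48.4% of lowered and 34.6% of other active regions. The longer PU.1 motif GAGGAAGT was in none of the 6. The Cx3cr1 sequence also held a MEF2 motif, and the Unc93b1 sequence an IRF motif and a composite PU.1-IRF motif that overlaps its ETS core. The Pilrb1 sequence held none of the 15 motifs searched. The promoter sequences lie at chr5:137857851-137858050 (Pilrb1) and chr9:120068184-120068383 (Cx3cr1). The intron sequences lie at chr19:47446908-47447107 (Sh3pxd2a) and chr19:3935884-3936083 (Unc93b1). The Lyl1 sequence, at chr8:84699961-84700160, is 1.40 kb from the gene start. The Itga6 sequence, at chr2:71662072-71662271, is annotated as intron but lies 83.4 kb upstream of the Itga6 start. All are on the plus strand.
Pilrb1: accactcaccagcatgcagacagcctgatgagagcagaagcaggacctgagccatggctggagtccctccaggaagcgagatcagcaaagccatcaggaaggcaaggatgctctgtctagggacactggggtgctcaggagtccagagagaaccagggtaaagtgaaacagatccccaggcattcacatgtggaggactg
Cx3cr1: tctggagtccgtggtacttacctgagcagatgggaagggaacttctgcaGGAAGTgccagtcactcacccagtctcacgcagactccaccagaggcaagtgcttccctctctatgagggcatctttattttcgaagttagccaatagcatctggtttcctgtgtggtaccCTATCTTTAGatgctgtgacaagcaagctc
Itga6: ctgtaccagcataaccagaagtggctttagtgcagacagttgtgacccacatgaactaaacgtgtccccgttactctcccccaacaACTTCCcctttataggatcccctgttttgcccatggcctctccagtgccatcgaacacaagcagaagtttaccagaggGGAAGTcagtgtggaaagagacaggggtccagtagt
Sh3pxd2a: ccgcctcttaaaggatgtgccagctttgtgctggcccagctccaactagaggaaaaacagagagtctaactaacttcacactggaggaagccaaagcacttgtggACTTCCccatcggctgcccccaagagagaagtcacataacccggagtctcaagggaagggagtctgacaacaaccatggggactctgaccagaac
Lyl1: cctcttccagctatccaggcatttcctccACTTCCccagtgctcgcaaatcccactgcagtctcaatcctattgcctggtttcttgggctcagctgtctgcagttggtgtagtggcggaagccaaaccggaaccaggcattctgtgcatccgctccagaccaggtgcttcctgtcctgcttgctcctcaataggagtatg
Unc93b1: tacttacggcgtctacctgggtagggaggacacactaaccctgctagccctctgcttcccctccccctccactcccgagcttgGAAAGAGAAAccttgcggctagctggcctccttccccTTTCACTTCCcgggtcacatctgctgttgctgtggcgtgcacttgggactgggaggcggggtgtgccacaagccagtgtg

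The cells carried macrophage chromatin. All 8 macrophage markers searched (among them Csf1r, Itgam and Mertk) had a region at their start with a basal H3K27ac mean between 190.2 and 1080 normalized tags. None of 5 T cell markers had a region within 2.5 kb of its start, so they had no value. Of 4 fibroblast markers 2 had such a region, and neither reached 16 normalized tags. Such a region was found for 2 of 4 B cell, 2 of 5 neutrophil and 3 of 4 dendritic cell markers. One marker each of B cells (88.1), neutrophils (37.4) and dendritic cells (111.6) reached 16, and their part in the results was not tested. Library totals ran from 4691644 to 29050468 tags. The share of tags falling in regions was low in several libraries. For H3K27ac it was 20.5% in replicate 2 at 1 h against 44.0% in replicate 1. In BALB at 24 h it was 28.7% in replicate 2 against 57.1% in replicate 1, and in PWK 38.1% against 55.0%. For H3K4me2 in C57 at 24 h it was 18.9% in replicate 2 against 27.2% in replicate 1. For basal Pol II in BALB it was 17.6% in replicate 3 against 33.3% and 27.8% in replicates 1 and 2. The C57 basal H3K27ac libraries held 69.7% and 63.8%, the 6 h libraries 51.0% and 50.2%, and the 24 h libraries 46.4% and 41.2%, so scaling to the library total places other active regions lower after IL-4 too.

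H3K27ac at the lowered regions is given as a description, since these values made the choice. In libraries of many cells, a lower mark in every cell and a loss in some cells cannot be told apart. The median over the 3543 regions was 84.1 and 134.8 normalized tags in the 2 basal libraries, 22.4 and 24.4 at 1 h, 24.6 and 24.3 at 6 h, and 25.5 and 35.4 at 24 h. Other active regions had medians of 86.2 and 81.3 at basal, 59.5 and 28.9 at 1 h, 70.9 and 75.5 at 6 h, and 63.7 and 60.4 at 24 h. The lowered regions were thus in the basal range of other active regions in replicate 1 and above it in replicate 2. Basal replicate 2 exceeded replicate 1 at 2875 lowered regions (81.2%) and at 43.3% of other active regions. A basal library therefore weighs on membership. Leaving out basal replicate 1 gave 5588 regions, 3252 of them among the 3543, and leaving out basal replicate 2 gave 2469, 1726 of them shared.

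**Figure D1:**
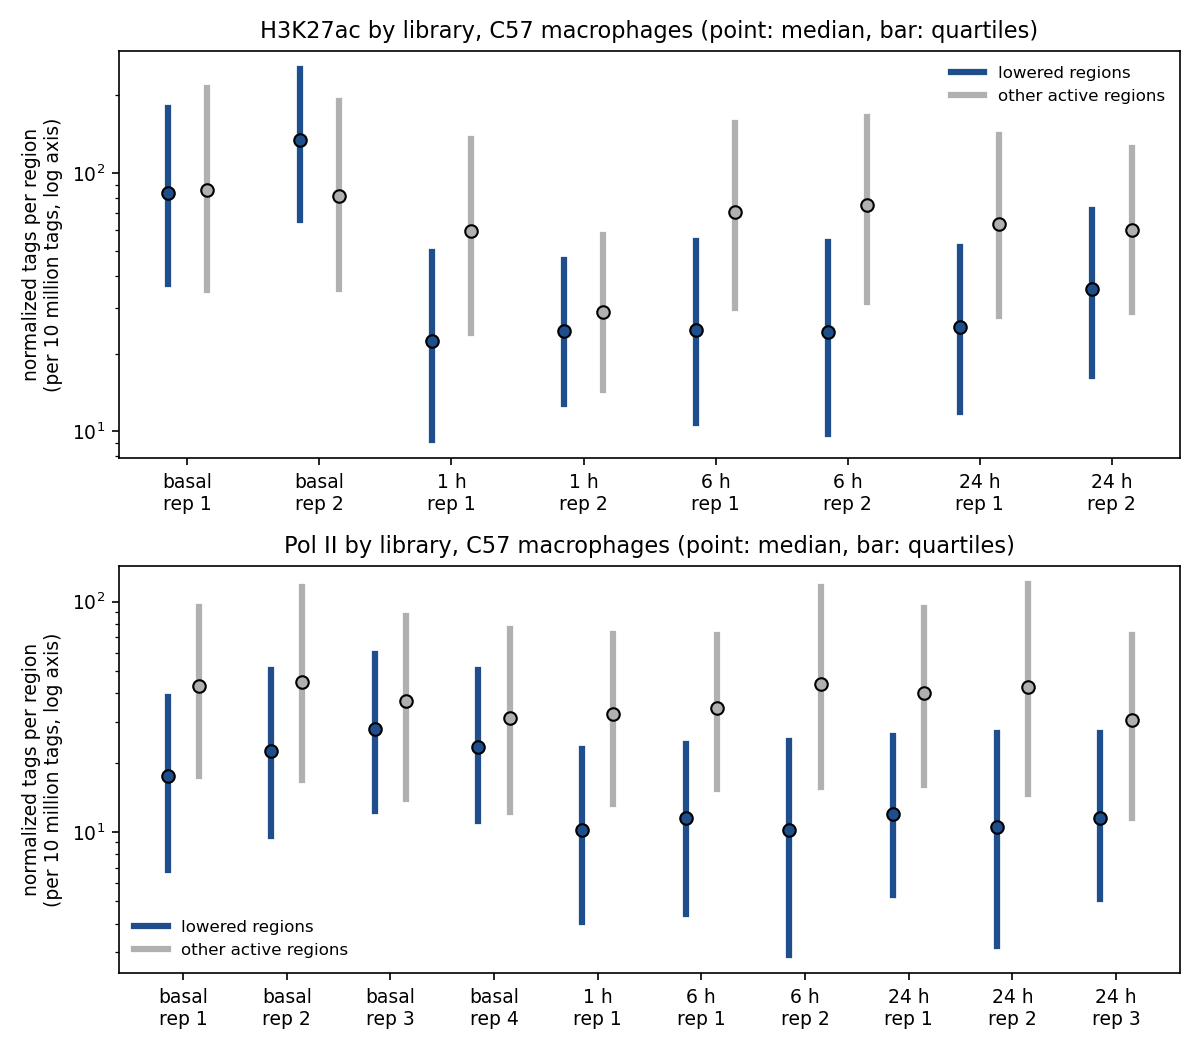
Median (point) and quartiles (bar) of normalized tags per 10000000, on a log axis, for each C57 library of H3K27ac (top) and Pol II (bottom), at the 3543 lowered regions (blue) and the 38247 other active regions (grey). H3K27ac made the choice and Pol II did not, and the Pol II medians at lowered regions were 17.5 to 27.9 in the basal libraries and 10.2 to 12 in the later ones.

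Most lowered regions were already low at 1 h, a time the rule did not use but which shares its basal libraries. A ratio of at least 2.5 was found at 1 h in 3306 (93.3%), against 33.3% of other active regions. The median ratio of basal to treated means was 4.32 at 1 h, 3.93 at 6 h and 3.24 at 24 h, against 2.07, 1.33 and 1.52 at other active regions. The mean was lowest at 1 h in 1770 regions (50.0%), at 6 h in 1289 (36.4%) and at 24 h in 484 (13.7%), where the low share of tags in regions of replicate 2 at 1 h bears on the first count. All 4 libraries of 6 and 24 h lay below both basal libraries at 3319 lowered regions (93.7%), against 35.7% of other active regions, which are values the choice itself used, and the rule was met within replicate 1 and again within replicate 2 at 1580. Just inside the threshold, regions named by their nearest genes Hmces, Slc45a1 and Spink13 had a smaller ratio of 2.501. Just outside it, the region at the Enc1 start had means of 234.3 at basal, 92.3 at 6 h and 93.1 at 24 h, a smaller ratio just under 2.5.

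The 5 highest basal means belonged to regions of genes with immune or developmental roles. At the intron region of Unc93b1 (chr19:3935484-3936484), whose product carries nucleic acid-sensing toll-like receptors to endosomes, H3K27ac was 1233 and 1211 normalized tags at basal, 361 and 240.3 at 1 h, 427.4 and 541.6 at 6 h, and 446.5 and 466 at 24 h. At an intron region 59.8 kb from the start of Sema4d, a semaphorin, it was 1386 and 927.7 at basal and 437.1 and 319.6 at 24 h. Another region lay 0.127 kb from the start of Hcst, which encodes an adaptor of activating receptors. Intergenic regions lay 9.57 kb from the start of Lfng, a glycosyltransferase acting on Notch, and 61.6 kb from that of Zfp36l2, which encodes an mRNA decay factor. All 5 kept at least 314.1 normalized tags in each 24 h library. Pol II at the Hcst region was 257.1, 268.8, 349.4 and 272.4 at basal and 116, 167.9 and 218.1 at 24 h, without overlap (log2 fold change −0.81, adjusted p = 0.437 by limma with Benjamini-Hochberg adjustment).

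Pol II was measured in libraries of its own and was not part of the choice. Its median at lowered regions was 17.5, 22.5, 27.9 and 23.3 normalized tags in the 4 basal libraries, 10.2 at 1 h, 11.5 and 10.2 at 6 h, and 12, 10.5 and 11.5 at 24 h. Each of the 6 later medians was below each basal median. Other active regions carried more Pol II and their medians overlapped between basal (31.4 to 44.9) and the 5 libraries of 6 and 24 h (30.8 to 43.9). The median log2 fold change, on the scale of log2(normalized tags + 1), which understates the change at low regions, was −0.98 at 6 h and −0.83 at 24 h at lowered regions. Over all active regions it was −0.08 and −0.07. The change was below 0 at 3376 lowered regions (95.3%) at 6 h and at 3357 (94.7%) at 24 h, against 56.6% and 56.7% of active regions. The mean was lower at neither time at 70 lowered regions (1.98%).

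By the fold rule applied to Pol II (at least 2.5-fold lower, basal mean of at least 8), 1017 lowered regions (28.7%) fell at 6 h, against 2.57% of all regions, and 693 (19.6%) at 24 h, against 1.55%. At both times 526 (14.8%) passed, where the background was 0.908%. The basal Pol II minimum was met by 2917 lowered regions. Libraries did not overlap, with both 6 h libraries below all 4 basal libraries, at 1831 lowered regions (51.7%), against 9.84% of all regions. The 3 libraries of 24 h lay below all basal libraries at 1161 (32.8%), against 5.04%, and all 5 libraries of 6 and 24 h did at 993 (28.0%), against 3.33%. Among the 1580 regions meeting the H3K27ac rule within each replicate the Pol II medians were −1.23 and −0.997, and 42.2% and 28.5% passed the fold rule at 6 and 24 h. Among the 1571 where the rule was not met within replicate 1, the medians were −0.83 and −0.71, 17.95% and 13.4% passed the fold rule, and 10 and 29 passed by limma with Benjamini-Hochberg adjustment.

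In the test of single regions by limma with Benjamini-Hochberg adjustment over all 77955 regions, Pol II was lower at 92 lowered regions (2.60%) at 6 h, against 0.137% of all regions, and at 108 (3.05%) at 24 h, against 0.174%. It was higher at 1 lowered region at each time, where 0.428% and 0.503% of all regions were called higher. An unadjusted p under 0.05 with a fall was reached at 1556 (43.9%) and 1472 (41.5%) lowered regions, against 5.10% and 4.95% of all regions. No label says that equal replicate numbers mark paired libraries. Where they were taken to do so at 24 h, with the replicate block, 397 lowered regions passed, where 1.03% of all regions did. The counts of single-region calls rested on few libraries. For the fits without a library, the share of all regions was not counted. At 6 h they were 52 without 24 h replicate 1, 139 without 24 h replicate 3, 1 and 0 without 6 h replicate 1 and replicate 2, and 495, 21, 8 and 8 without basal replicates 1 to 4. At 24 h they were 65 and 67 without the 6 h replicates 1 and 2, 6 and 12 without 24 h replicates 1 and 2, and 288, 29, 12 and 13 without basal replicates 1 to 4. The counts by the fold rule lay between 811 and 1213 at 6 h and between 501 and 868 at 24 h when single libraries were left out.

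The largest tested falls of Pol II at 24 h were found at regions of receptors and regulators. The regions named were picked among those past the test whose basal and 24 h libraries did not overlap. Their separation at 24 h was thus set by the choice. At the promoter region of Pilrb1 (chr5:137857451-137858451), which encodes an activating paired immunoglobulin-like receptor, Pol II was 28.7, 16.1, 18.8 and 11.1 normalized tags in the basal libraries. It was 5.59 at 1 h, 2.19 and 0.49 at 6 h, and 0.67, 2.73 and 0 at 24 h. The later libraries did not overlap with basal, and the log2 fold change at 24 h was −3.34 (SE 0.55, adjusted p = 0.00835, limma). The intron region of the inhibitory partner Pilra, 4.55 kb from its start, had Pol II of 34.3, 20.1, 30.6 and 27.3 at basal and 2.67, 0.91 and 7.7 at 24 h (log2 fold change −2.86, SE 0.63, adjusted p = 0.0429, limma). Both receptor genes thus held a region that passed in the same direction.

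At the promoter region of Cx3cr1 (chr9:120067784-120068784), the gene of the fractalkine receptor, Pol II was 16.2, 24.1, 53.1 and 75.9 at basal, 0.55 and 1.95 at 6 h, and 1.33, 1.82 and 10.3 at 24 h. The log2 fold change was −4.10 (SE 0.70) at 6 h and −3.12 (SE 0.62) at 24 h, with adjusted p = 0.0136 and 0.026 (limma). H3K27ac there was 60.4 and 185.4 at basal and 4.24 and 21 at 24 h, so the basal libraries differed from each other by more than 2.5-fold. The region named by Itga6 (chr2:71661672-71662672), the gene of a laminin-binding integrin chain, lies 83.4 kb upstream of the gene start. Pol II there was 13.1, 31.3, 95.9 and 72.9 at basal. It was 1.64 and 0.49 at 6 h, and 4.0, 2.28 and 7.7 at 24 h (log2 fold change at 24 h −3.02, SE 0.60, adjusted p = 0.0265, limma). The basal libraries again spread widely and all later ones lay below them.

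The region near Nfkbiz, which encodes a nuclear modulator of NF-kB target genes, lies 39.9 kb from the start and had a log2 fold change of −2.59 (SE 0.55, adjusted p = 0.0377). The intron region of Pou2f2, the gene of the factor Oct-2, had −2.62 (SE 0.45, adjusted p = 0.0115), and the region at the gene of Id3, an inhibitor of helix-loop-helix factors, −2.67 (SE 0.55, adjusted p = 0.0331). A region 65.9 kb upstream of the start of Stk17b, which encodes a kinase linked to apoptosis, fell by 2.63 (SE 0.43, adjusted p = 0.00835, limma). Intergenic regions 49.2 kb from the start of Gm5426 and 92.6 kb from that of Sh3tc2 had −2.75 and −2.77 (adjusted p = 0.0295 and 0.0184, all by limma with Benjamini-Hochberg adjustment). In each of the 10 regions both 6 h libraries also lay below all basal libraries, and 5 of the 10 passed the adjusted test at 6 h. Without 24 h replicate 1 or replicate 2, 2 of the 10 calls at 24 h remained past the threshold, without basal replicate 3 or 4, 3 did, and without basal replicate 2, 6 did. At 6 h, where 5 passed, none did without either 6 h library, 2 did without basal replicate 2 or 3, 1 without basal replicate 4 and 3 without 24 h replicate 1, and 8 did without basal replicate 1.

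**Figure D2:**
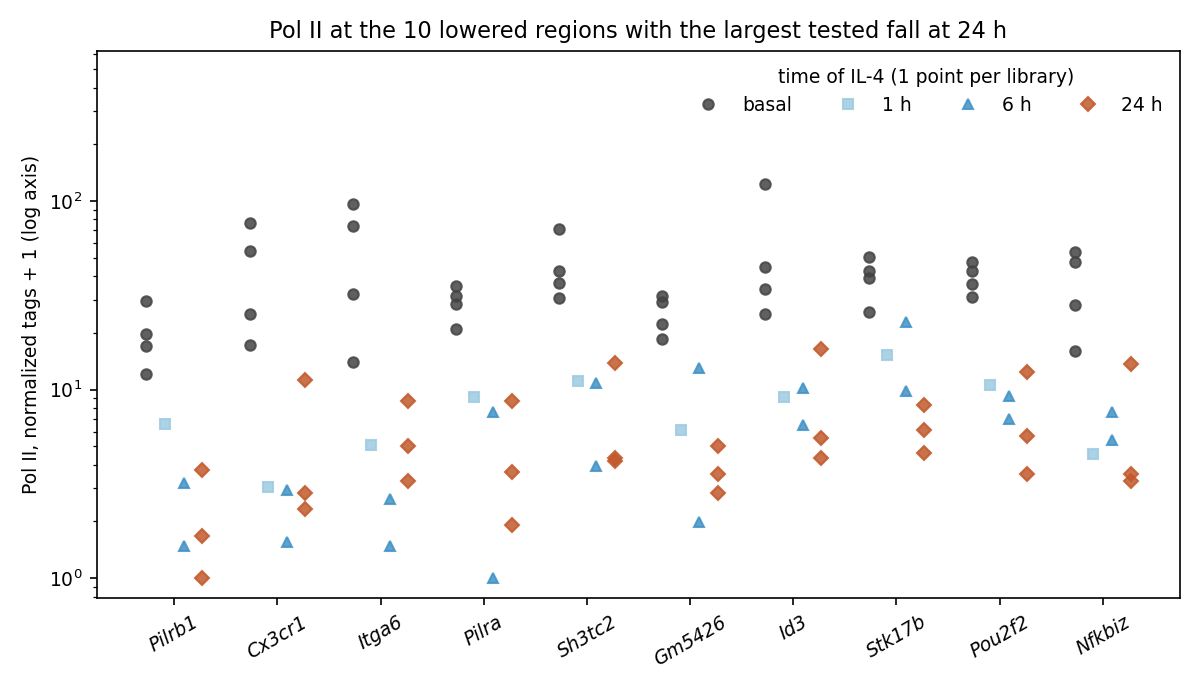
Pol II in normalized tags + 1 (log axis), 1 point per C57 library, at the 10 lowered regions with the largest tested fall at 24 h, named by the nearest gene. Every library of 1, 6 and 24 h lies below the 4 basal libraries of its region, which for 24 h was a condition of the choice. Basal libraries of 1 region differ several-fold, from 13.1 to 95.9 at Itga6 before 1 is added.

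The mark H3K4me2, carried by enhancers and promoters whether or not they are active, was measured at 24 h in 2 libraries per group, and 3219 lowered regions had a region in that table. The median log2 fold change was −0.94 at lowered regions, −0.82 at active regions and −0.69 over all regions, so most of the fall was shared by all regions of the table. With scaling by the median ratio of the libraries the median at lowered regions was −0.25. By limma 16 lowered regions (0.497%) passed, against 0.0576% of all regions, and by the fold rule 186 (5.78%), against 1.27%. These counts depended on single libraries. The limma count was 2642 without 24 h replicate 1 and 0 without any other library, and the fold rule gave 1151, 122 and 395 without 24 h replicate 1, 24 h replicate 2 and basal replicate 1. H3K4me3, the mark of promoters, was low at lowered regions, with a median of 6.45 at basal and 6.13 at 24 h, against 25.4 and 27.4 at other active regions.

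H3K27ac of the other strains asks whether the same places were lower in libraries that the rule did not use. A region centred within 100 bp was found for 2919 lowered regions in BALB, 3015 in NOD, 2578 in PWK and 2010 in SPRET, with 1674 matched in all 4 strains and 250 in none. The median over matched regions was 85.2 and 109.0 normalized tags in the basal BALB libraries and 44.4 and 29.5 at 24 h, 88.9 and 137.3 against 43.4 and 43.3 in NOD, 65.2 and 90.0 against 33.0 and 34.4 in PWK, and 81.2 and 80.3 against 45.0 and 49.5 in SPRET. Each strain's basal medians lay above both of its 24 h medians. Basal replicate 2 had the higher median in BALB, NOD and PWK, as in C57, but not in SPRET. At other active regions it was lower in BALB (78.0 against 89.7) and NOD (73.0 against 80.6) and higher in PWK (83.8 against 75.5). Whether same-numbered libraries of different strains deviate together was not tested. The median log2 fold change was −1.31 in BALB, −1.25 in NOD, −1.06 in PWK and −0.70 in SPRET, while active regions had −0.46, −0.43, −0.31 and −0.19. With median-ratio scaling, which sets the typical region of a table near 0, the medians at lowered regions were −0.98, −1.03, −0.86 and −0.61. On the main scale the change was below 0 at 99.5%, 99.2%, 97.1% and 92.2% of the matched regions, against 80.4%, 76.9%, 73.98% and 67.02% of active regions. The tables were scaled separately and hold different regions, so the strains were not tested against each other.

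By the fold rule, 1383 matched regions (47.4%) were lower in BALB, against 5.13% of all BALB regions, and 1429 (47.4%) in NOD, against 5.14%. In PWK 741 (28.7%) were lower, against 3.01%, and in SPRET 175 (8.71%), against 0.939%. Leaving out a library moved these counts to 2116 without BALB 24 h replicate 1, 791 without NOD basal replicate 2, 1121 and 493 without PWK basal replicate 1 and replicate 2, and 310 and 265 without SPRET 24 h replicate 2 and basal replicate 2. The library left in at 24 h in BALB is the one with the low share of tags in regions. Of the 1674 regions matched everywhere, 67 were at least 2.5-fold lower in all 4 strains, 257 in 3, 381 in 2, 387 in 1 and 582 in none, and the mean was lower in all 4 at 1523 (91.0%). Of the 18478 other active regions matched everywhere, 11 (0.0595%) were at least 2.5-fold lower in all 4 strains and 17454 (94.5%) in none, and the mean was lower in all 4 at 9058 (49.02%).

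Calls of single regions by limma, with 2 libraries per group, numbered 190 (6.51%) in BALB, against 0.653% of all regions, 0 in NOD, against 0%, 20 (0.776%) in PWK, against 0.0482%, and 46 (2.29%) in SPRET, against 0.192%. These fits did not pair libraries. Taking equal replicate numbers as pairs, which no label states, gave more calls in each strain, as listed in the closing section. In NOD 1676 matched regions had an unadjusted p under 0.05 with a fall (55.6%, against 6.91% of all NOD regions), and 1 passed by edgeR and 327 by DESeq2. For these 2 methods and for the fits without a library, the share of all regions was not counted. Without single libraries the calls were 1090, 67 and 39 in BALB (24 h replicate 1, basal replicates 1 and 2) and 123 without 24 h replicate 2. They were 274 and 79 in NOD without basal replicates 1 and 2. In PWK they were 104 and 72 without basal replicates 1 and 2 and 0 without either 24 h library, and in SPRET 3 without basal replicate 2 and 0 without any other.

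**Figure D3:**
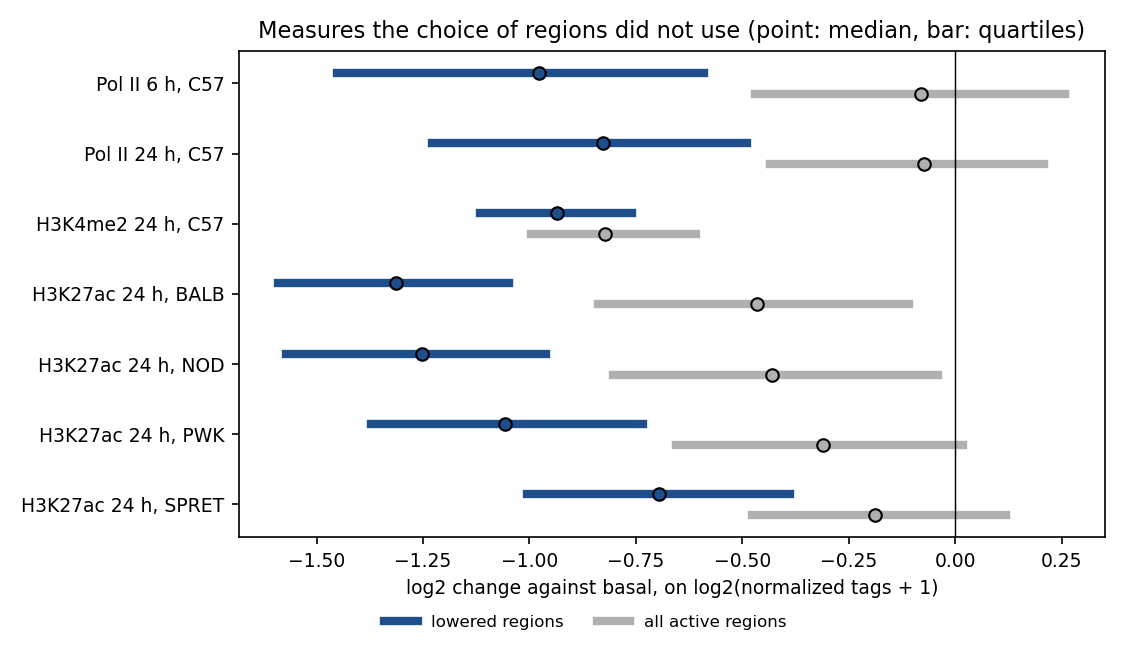
Median (point) and quartiles (bar) of the log2 change against basal, on log2(normalized tags + 1), at lowered regions (blue) and all active regions (grey), for Pol II and H3K4me2 in C57 and H3K27ac in 4 other strains. The medians at lowered regions lie further below 0 than those at active regions in every row, by the smallest margin for H3K4me2 (−0.94 against −0.82).

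The regions whose H3K27ac was lower in all 4 strains by the widest margin were led by an intron region of Sh3pxd2a (chr19:47446508-47447508), the gene of a podosome scaffold protein. H3K27ac there was 276.1 and 380.8 at basal in C57 and 27.2 and 28.9 at 24 h. It was 213.1 and 177.5 against 41.4 and 31.9 in BALB, and 216.1 and 419.9 against 63.7 and 49.0 in NOD. In PWK it was 18.9 and 15.7 against 2.02 and 2.86, and in SPRET 160.7 and 143.6 against 22.04 and 23.7. The fold of the means lay between 5.21 and 6.42 in the 4 strains, although the PWK basal level was the lowest of all. Pol II in C57 was lower there as well (log2 fold change at 24 h −1.87, SE 0.38, adjusted p = 0.0297, limma).

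The Itga6 region ranked next, with a fold of 6.46 in BALB, 7.05 in NOD, 3.90 in PWK and 4.20 in SPRET. At the region near Lyl1 (chr8:84699561-84700561), which encodes a helix-loop-helix factor of blood cells, H3K27ac was 126.9 and 233.9 at basal in C57 and 16.1 and 45.3 at 24 h, and it was 5.29-fold, 4.4-fold, 5.67-fold and 3.87-fold lower in BALB, NOD, PWK and SPRET. Pol II at Lyl1 was 34.9, 60.2, 52.0 and 62.8 at basal and 41.4, 34.1 and 28.2 at 24 h, so the groups overlapped (adjusted p = 0.713, limma). At Lyl1 acetylation was thus lower without overlap in C57 while the Pol II libraries overlapped. At an intron region of Ppcdc, an enzyme gene of coenzyme A synthesis, Pol II fell without overlap from 80.5, 60.2, 85.2 and 52.7 to 16.01, 14.6 and 11.5 (log2 fold change −2.22, SE 0.35, adjusted p = 0.00732, limma), and H3K27ac was 4.14-fold, 4.45-fold, 4.30-fold and 3.59-fold lower in the 4 strains. The other regions of this group were named by Bmf, Cap1, Erich4, Exoc6 and Adap1, with a second region of Cx3cr1, 10.96 kb inside the gene.

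Pol II of the other strains was lower at lowered regions too, and its size was not tested against C57. Its median log2 change at lowered regions was −0.42 in BALB, −0.66 in NOD, −0.59 in PWK and −0.51 in SPRET, against 0.37, −0.06, −0.05 and −0.15 at other active regions, given as values with no test. In BALB the median of other active regions lay above 0. The BALB basal mean includes replicate 3, with 17.6% of its tags in regions, and its part in the BALB values was not tested.

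The EGR2-deletion libraries were counted around 4677 EGR2 sites induced by IL-4, so they touch few lowered regions. An EGR2 site lay within 500 bp of the centre of 68 lowered regions, 65 distinct sites in all. Their median H3K27ac in Egr2flfl cells was 70.7 and 97.4 normalized tags at basal and 44.7 and 59.1 at 24 h. In LyzMCreEgr2flfl cells it was 78.7 and 95.8 at basal and 52.5 and 64.4 at 24 h. These sites were therefore lower after IL-4 in both genotypes, whereas the median over all sites in Egr2flfl rose from 17.04 and 16.3 to 30.2 in both libraries. In Egr2flfl, 26 of the 68 (38.2%) were lower by limma, against 2.54% of all sites, and 3 (4.41%) by the fold rule, against 0.321%. The limma count was 13, 16 and 12 without 24 h replicates 1 and 2 and basal replicate 2, and the fold count was 1, 5 and 10 without 24 h replicates 1 and 2 and basal replicate 1.

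The difference in response between the genotypes passed the test at 0 of the 68, against 0% of all sites, by limma, edgeR and DESeq2. An unadjusted p under 0.05 in either direction was reached at 3 (4.41%), against 615 of all 4677 sites (13.2%). The median difference was 0.07 on the log2 scale, 0.39 with median-ratio scaling and −0.12 to 0.28 when single libraries were left out. At the 68 regions the single values lay between −0.64 and 1.53, and the median SE was 0.384. None passed, the highest of 1.53 included, so an absence of difference cannot be read from this test. EGR2 itself was not measured in these libraries, so the deletion was not checked from these files.

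Lowered regions were mostly far from gene starts. Introns held 1620 (45.7%), intergenic sequence 1506 (42.5%) and promoters 239 (6.75%), whereas 25.6% of other active regions were promoters. The median distance to a gene start was 20.7 kb, against 8.90 kb. Another lowered region lay within 10 kb of 1952 (55.1%), and 775 (21.9%) overlapped another in their windows and so share tags. The median log2 fold change of Pol II at 24 h was −0.80 at promoter regions and −0.84 at intron or intergenic lowered regions. The open chromatin call itself was absent at 24 h but present at basal in 1451 (41.0%), against 23.7% of other active regions, and present at 24 h in 50.7% against 67.8%.

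Peaks of transcription factors, from 1 list per factor and time in C57, overlapped lowered regions in patterns of their own. PU1, the master factor of macrophages, had a basal peak at 90.3% of lowered regions, 80.9% of other active regions and 43.2% of raised regions, and 94.8% of the basal peaks at lowered regions were listed again at 24 h, against 93.3% of those at other active regions and 92.6% over all regions. CEBPb had a basal peak at 38.4%, 29.5% and 16.1%, and at 24 h at 51.8%, 49.4% and 56.5%. PPARg, a nuclear receptor of lipid metabolism, had a basal peak at 17.4%, 12.3% and 3.85%, and at 24 h at 52.3%, 48.9% and 53.1%. CEBPb and PPARg peaks were more often listed at 24 h than at basal in all 3 sets. Lists grow with the depth of their libraries, so shares compare sets within 1 list better than times. Raised regions had low basal H3K27ac (medians 8.82 and 7.13 normalized tags), whereas the other 2 sets required a mean of at least 16. The part of this in the basal shares of every factor was not tested.

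STAT6 had a basal peak at 78.4% of lowered regions, 55.7% of other active and 16.9% of raised regions. At 1 h the shares were 45.1%, 42.2% and 55.0%, at 6 h 47.0%, 45.5% and 60.8%, and at 24 h 70.0%, 61.7% and 74.8%. A STAT6 peak was therefore listed at most lowered regions before IL-4 was given. EGR2 peaks were fewer than elsewhere at every time, from 6.27% against 19.7% at basal to 27.1% against 50.4% at 24 h. Neither factor had a peak at any time after IL-4 at 861 lowered regions (24.3%), against 19.8% of other active and 12.1% of raised regions. The median log2 fold change of Pol II at 24 h was −0.83 at lowered regions with a STAT6 peak at 24 h and −0.82 at those without.

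In 200 bp around the centre on either strand, the PU.1 motif GAGGAAGT was found in 15.6% of lowered regions, 8.34% of other active, 5.99% of raised and 8.38% of all regions. The shorter ETS core GGAAGT, which the PU.1 motif contains and which was added after sequences were seen, stood in 48.4%, 34.6%, 28.0% and 33.1%. The RUNX motif TGTGGTT was found in 10.4% against 6.08% of other active regions, and the composite PU.1-IRF motif in 6.52% against 4.22%. Motifs of IL-4 factors went the other way. The STAT6 motif was in 3.11% of lowered, 5.72% of other active and 24.3% of raised regions, and the EGR motif GTGGGNG in 15.2%, 22.03% and 30.6%. The AP-1 motif TGANTCA was at 17.4% and 16.95% in lowered and other active regions, against 26.6% in raised regions, and C/EBP (TTGCNNAA) was at 12.8%, 11.2% and 15.6%. Median GC content was 50%, 53% and 49% in the 3 sets, which bears on motif shares and was not corrected. A match describes letters and says nothing of binding.

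**Figure D4:**
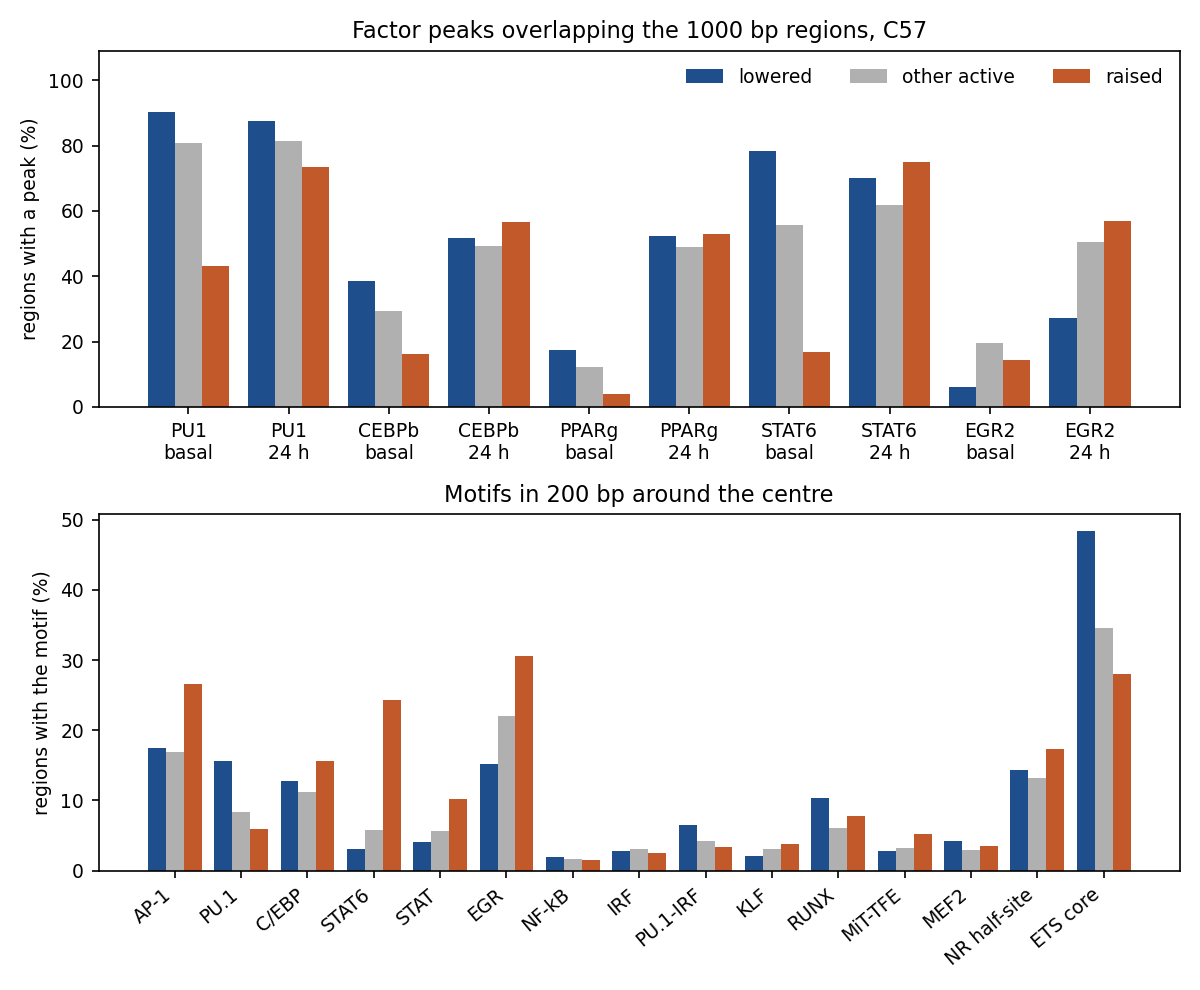
Share of regions in percent with a factor peak (top, basal and 24 h lists of C57) and with a motif in the central 200 bp (bottom), for lowered (blue), other active (grey) and raised regions (orange). PU1 and STAT6 peaks at basal and the PU.1, RUNX and ETS core motifs are most frequent at lowered regions, and the STAT6 and EGR motifs least frequent there. Raised regions had low basal H3K27ac, and its part in their basal peak shares was not tested.

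A protein-coding gene start lay within 100 kb of 3094 lowered regions (87.3%), and the nearest such gene gave each region its name, which does not show that the region acts on it. They fell to 1651 genes, 14.3% of the 11524 genes with an active region. Of these, 710 had 2 or more lowered regions and 99 had 5 or more. Zfp36l2 had 19 of its 40 active regions lowered. Bmf, a gene of cell death, had 13 of 15, and Nfatc2, a calcium-responsive factor gene, 12 of 17. The median Pol II change at 24 h over these regions was −1.43 at Zfp36l2, −0.97 at Bmf and −1.11 at Nfatc2, with each of their regions below 0. Pid1 (12 of 15) and B4galt6 (12 of 19), which encodes an enzyme of glycosphingolipid synthesis, had −1.30 and −1.36. Regions of 1 gene are neighbours and not independent.

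Over all genes, 8.19% of active regions were lowered. Of the regions of toll-like receptor signalling genes 25 of 105 were lowered (23.8%), and of chemokine and chemoattractant receptors 17 of 78 (21.8%). Chemokines and inflammatory cytokines had 21 of 106 (19.8%), and paired and lectin receptors 18 of 97 (18.6%). Of the genes with an active region in these lists, 8 of 17, 8 of 13, 8 of 20 and 6 of 16 had a lowered region, against 14.3% of all genes. Genes with a lowered region had a median of 5 active regions and genes without one 2. Shares of genes were not corrected for this. Several genes held many of the lowered regions: Pilra 8, Ly86 and Ccr3 6 each, and Cd14, Cd180 and Cx3cr1 5 each. The active regions of Tlr4, Myd88, Tnf, Il1b and Ccl2 included no lowered region. TGF-beta signalling genes had 19 of 79 (24.1%), scavenger and apoptotic cell receptors 13 of 63 (20.6%), and Fc receptors, complement and integrins 9 of 62 (14.5%). Here 4 of 8, 5 of 10 and 6 of 12 genes with an active region had a lowered region. Pol II at 24 h had a median change of −1.08, −1.44, −1.34 and −1.94 at the lowered regions of the first 4 lists and passed the limma test at 4, 4, 4 and 7 regions, against 98 of the 3094 lowered regions with a gene start within 100 kb. In the last 3 lists the medians were −0.93, −1.15 and −0.88, with 0, 1 and 0 passing. None of the lowered regions rose by limma in any list. Raised regions numbered 1, 1, 4 and 3 in the first 4 lists and 2, 0 and 13 in the last 3. The list of Fc receptors, complement and integrins thus held more raised than lowered regions.

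At Cd14, the co-receptor of lipopolysaccharide, Pol II was 252.7, 201.4, 409.5 and 327.1 normalized tags at basal and 56.7, 55.5 and 101.3 at 24 h without overlap (log2 fold change −2.06, SE 0.35, adjusted p = 0.0115, limma). At an intron region 25.97 kb from the start of Cxcl10, an interferon-induced chemokine, it was 53.7, 89.1, 64.9 and 69.9 against 21.3, 15.9 and 11.5 (−2.04, SE 0.36, adjusted p = 0.0147, limma). At Clec4d, a lectin receptor, it was 344.4, 188.6, 204.7 and 85.1 against 55.4, 29.1 and 37.2 (−2.20, SE 0.42, adjusted p = 0.0231, limma). The groups did not overlap in these 3 regions.

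Other named regions of these lists did not pass. Clec12a, an inhibitory lectin receptor, had −1.78 (adjusted p = 0.0629), the region 32.6 kb from the start of the chemokine receptor gene Ccr3 −1.64 (0.0788), Ccl3, a chemokine, −1.24 (0.149), and the promoter of Fcgr1, the high-affinity receptor of immunoglobulin G, −1.34 (0.242). Tlr9, a sensor of DNA, had −0.85 (adjusted p = 0.521), and Stab1, a scavenger receptor, −0.91 (0.518). In each of these the Pol II mean was lower at 24 h, from 429.8 to 130.1 at Clec12a and from 96.4 to 50.5 at Tlr9.

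Lists with other functions held fewer. Macrophage transcription factors had 17 lowered regions of 236 (7.20%), none past the limma test and 8 past the fold rule, with Maf at −1.28 (adjusted p = 0.244). Cholesterol and LXR target genes had 6 of 76 (7.89%), with the efflux pump Abca1 at −1.50 (adjusted p = 0.0541) and Apoe, an apolipoprotein, at −1.19 (0.261). Lysosome genes had 4 of 143, cell cycle genes 2 of 50, growth factor receptors 1 of 49 and interferon response genes 1 of 58. Raised regions numbered 18 for macrophage transcription factors and 7 for cholesterol and LXR target genes. They numbered 4 each for lysosome and cell cycle genes, 3 for growth factor receptors and 2 for interferon response genes. Genes induced by IL-4 had 0 of 69, while 55 of their regions were among the raised ones, as their choice would lead to. The lists were chosen with earlier results of these data known.

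**Figure D5:**
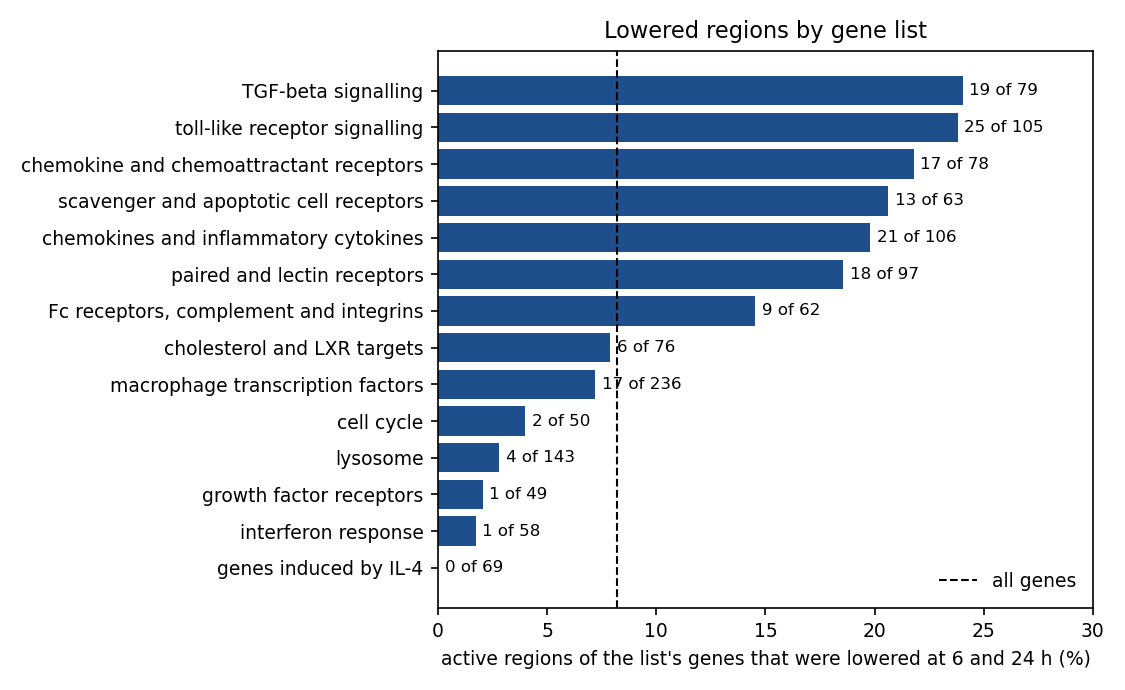
Share in percent of the active regions of each list's genes that were lowered at 6 and 24 h, with the counts beside each bar and the share over all genes (8.19%) as a dashed line. The TGF-beta, toll-like receptor, chemokine receptor, scavenger, chemokine and cytokine, paired and lectin receptor and Fc receptor lists lie above the line, and the lists of cholesterol, macrophage factor, cell cycle, lysosome, growth factor receptor, interferon and IL-4-induced genes below it.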

How the data were processed

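Bone marrow-derived macrophages were profiled by ChIP-seq, and groups followed the labels by target, strain or genotype, and hours of IL-4. The authors, by the published methods, used bowtie2 to align reads to each strain's genome, shifted positions to mm10 and counted tags with HOMER in 1000 bp around centres of open chromatin. The deposited signal values are these tag counts scaled by the authors to 10000000 tags per library, with replicates kept apart. Multiplying by the library total gave whole reads within 0.1 read for 100% of 6817730 values, so count tests could be run on recovered reads as alternatives. Scaling to the library total leaves differences in the share of tags in regions uncorrected. Peak lists come from HOMER peaks kept by the authors as reproducible between replicates, 1 list per group. The deposited score of each peak was not used beyond presence in a list, and an overlap of 1 bp counted. Of the tables' value columns 4 matched no sample's labels and were left out.

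Regions were tested by limma 3.58.1 in R 4.3.3 on log2(normalized tags + 1) without a filter, and adjusted p (Benjamini-Hochberg, over all regions of a table) had to be under 0.05. The C57 Pol II fit held all times, each strain had its own fit, and the Egr2 genotypes shared a fit with an interaction. Fold rules used means plus a pseudocount of 1. Alternatives were edgeR 4.0.16 and DESeq2 1.42.0 on recovered reads, a pseudocount of 5, a filter of 4 normalized tags, median-ratio scaling, the replicate block and leaving out each library. Leaving out libraries under the fold rule for the other measures, the subset met within each replicate and the ETS core were added after seeing the data. Tests were checked on simulated data. The 26 replicate pairs compared were not identical (chi-square per degree of freedom 2.46 to 17.5). The labels' protocols call replicates biological. Deviations from group means of same-numbered Pol II libraries correlated at 0.109, 0.226 and 0.193 between basal and 24 h, so the numbers were taken to pair those samples, a hint from the data and not the labels.

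Members and lists were chosen with earlier results of these data known. Regions were named by the nearest protein-coding gene start of GENCODE vM21 within 100 kb. Named were the 5 highest basal means, the 10 largest falls of Pol II at 24 h past the test without overlap, the 10 with the largest smallest fall over 4 strains, up to 2 genes per list by basal mean, the 3 regions on either side of the threshold and the 5 genes with most lowered regions (with ties, and 1 gene not reported here). Motifs were searched on both strands as AP-1 TGANTCA, PU.1 GAGGAAGT, C/EBP TTGCNNAA, STAT TTCNNNGAA, EGR GTGGGNG, NF-kB GGGANTTCC, KLF GGGTGTGG, RUNX TGTGGTT, MiT-TFE TCANGTGA, the nuclear receptor half-site AGGTCA, ETS core GGAAGT, and STAT6, IRF, PU.1-IRF and MEF2 by longer patterns. Tables were handled in Python 3.11.15 with pandas 2.3.3 and numpy 2.4.6, sequences read with pysam 0.24.0 and plots drawn with matplotlib 3.10.9.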

Additional observations from a re-analysis of the deposited data

Results flagged for a closer look

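At the Hcst region, basal Pol II in replicate 3 was 349.4 normalized tags, far from the other 3 basal libraries (257.1, 268.8 and 272.4). This was the 1 case among 48 named regions tested for a library standing apart from its group of 4, and chance flags about 1 in 20 groups.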

How the results depend on the processing

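The direction of the median change at lowered regions held under every alternative run for Pol II, H3K27ac in the other strains and H3K27ac in Egr2flfl, while counts of single-region calls did not. The number of lowered regions was 7081 at a fold of 2, 616 at a fold of 4, 1795 with median-ratio scaling, and 2469 to 5588 when a library was left out. Under the replicate block (the rule met within each replicate) it was 1580. In the counts of calls that follow, the share of all regions was worked out only for the replicate block of Pol II at 24 h (1.03%). The other counts therefore have no background beside them. With DESeq2 on recovered reads, calls were 403 for Pol II at 6 h, 312 at 24 h, 878 for H3K4me2, 327 in NOD, 70 in PWK and 82 in SPRET, and with edgeR 10 for H3K4me2, 110 in BALB, 1 in NOD, 65 in PWK and 112 in SPRET. Median-ratio scaling gave 2 for H3K4me2, 2 in PWK, 9 in SPRET and 50 in Egr2flfl, and a filter of 4 normalized tags gave 3 in NOD and 89 in SPRET. With the replicate block, calls were 172 for Pol II at 6 h, 397 at 24 h, 38 for H3K4me2, 949 in BALB, 2412 in NOD, 1033 in PWK, 420 in SPRET and 42 in Egr2flfl. The pairing is not established for any of these. For Pol II it rests on correlations of 0.109, 0.226 and 0.193 between basal and 24 h, and of 0.0709 and 0.254 at 6 h. In the strains, where the pairs number 2, the correlations were 0.435 in BALB, 0.492 in NOD, 0.441 in PWK and 0.261 in SPRET.

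With single libraries left out, limma calls ran from 0 to 495 for Pol II at 6 h, 6 to 288 at 24 h, 0 to 2642 for H3K4me2, 39 to 1090 in BALB, 0 to 274 in NOD, 0 to 104 in PWK, 0 to 3 in SPRET and 12 to 27 in Egr2flfl. The fold rule ran from 122 to 1151 for H3K4me2, 942 to 2116 in BALB, 791 to 1949 in NOD, 493 to 1121 in PWK, 160 to 310 in SPRET and 1 to 10 in Egr2flfl. A lone library left in a group is assumed to vary like the others of the fit. The cause of these shifts was not tested. Among 1932 values of named regions 174 lost and 122 gained the threshold. Pol II changed sign at 3 named regions when single libraries were left out, where the log2 change ran from −0.35 to 0.16 at Smad3 at 6 h, from −1.08 to 0.069 at Smad3 at 24 h, from −0.28 to 0.071 at Lamp2 at 24 h and from −0.30 to 0.16 at Cdk1 at 24 h. Shares of peaks and motifs moved in all 29 cases with another overlap or window.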
